A study of Mus musculus with 9 samples.

Results

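The genes described here encode enzymes and a receptor of the prostaglandin and leukotriene pathways, which turn the fatty acid arachidonic acid into lipid mediators of inflammation. They are Ptgs1, Ptgs2, Ptges, Hpgds, Hpgd, Alox5, Alox5ap, Lta4h, Ltc4s and Ltb4r1, chosen by symbol, and all 10 are among the 25124 genes of the deposited table. RNA of whole ear skin of C57BL/6 mice was sequenced in 9 libraries. In 4 libraries the mice carried Staphylococcus epidermidis strain LM087 and were treated with the checkpoint inhibitor anti-CTLA-4 (S. epi + anti-CTLA-4). In the other 5 they carried the same bacterium without anti-CTLA-4 (S. epi). Every mouse had the bacterium swabbed on the ears every other day, and a skin region was taken on day 8. Skin without the bacterium was not analysed here, so the comparison is between colonised skin with and without the antibody. No source used here gives the age of the mice. The labels number the libraries but tie none to an animal of its own, so each p-value reflects variation among these libraries, part of which may be technical.

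Arachidonic acid is released from membranes by phospholipases A2. The cyclooxygenases encoded by Ptgs1 and Ptgs2 convert it to prostaglandin H2, from which terminal synthases make the prostaglandins, and Hpgd starts their breakdown. In the other branch 5-lipoxygenase, helped by the membrane protein encoded by Alox5ap, makes leukotriene A4, which Lta4h turns into leukotriene B4 and Ltc4s into leukotriene C4. In skin, Ptgs1 is the constitutive cyclooxygenase and Ptgs2 the one induced in inflammation, while the 5-lipoxygenase branch is best known from myeloid and mast cells.

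The promoters of Ptgs2 and Ptgs1 are shown because these sister genes moved in opposite directions, as given further on. Both windows are RefSeq sequence on GRCm38.p6, the build also called mm10, plus strand, from 250 bases before to 50 bases after the RefSeq start. They lie at chr1:150099781-150100080 for Ptgs2 and at chr2:36230176-36230475 for Ptgs1. Capitals mark matches, on either strand, to the TATA box TATAAA, the GC box GGGCGG, the cyclic AMP response element half-site TGACG, the E-box CACGTG, the C/EBP site TTGCGNAA or the CCAAT box CCAAT.
Ptgs2: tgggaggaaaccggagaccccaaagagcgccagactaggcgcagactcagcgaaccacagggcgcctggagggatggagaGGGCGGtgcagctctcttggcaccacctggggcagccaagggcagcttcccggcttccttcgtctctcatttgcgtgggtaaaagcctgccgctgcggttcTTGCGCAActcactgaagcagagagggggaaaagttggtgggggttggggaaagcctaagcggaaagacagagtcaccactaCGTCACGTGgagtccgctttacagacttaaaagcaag
Ptgs1: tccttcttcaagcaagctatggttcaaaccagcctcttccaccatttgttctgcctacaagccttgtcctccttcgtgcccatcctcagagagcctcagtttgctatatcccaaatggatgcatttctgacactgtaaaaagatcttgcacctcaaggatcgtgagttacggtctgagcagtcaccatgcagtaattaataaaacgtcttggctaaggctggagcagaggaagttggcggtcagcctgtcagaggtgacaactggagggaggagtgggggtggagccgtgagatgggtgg
In the Ptgs2 window the GC box starts at position -170 and the C/EBP site at -69 from the RefSeq start. A half-site on the minus strand starts at position 14 and overlaps the E-box that starts at position 17. The Ptgs1 window holds none of the 6 motifs as spelled. Of 32851 mouse windows of the same length, 35.7% held the GC box, 20.8% the half-site, 7.15% the E-box and 0.798% the C/EBP site, while 13.6% held the TATA box and 37.4% the CCAAT box. The windows of Ptgs2 and Ptgs1 had 59.3% and 50.7% G and C, against a median of 52.7%. These matches describe letters only. Of the 10 genes, 9 matched the promoter table, and Alox5ap did not.

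The deposited unit is TPM, a level per gene length. Multiplied by the gene length listed in the table, which is the genomic span with introns, TPM was a whole multiple of 1 constant per library. The genes tested (9110 to 9286 per library, spans of 1000 to 20000 bases, under 1000 reads) came within 0.1 of a whole number in 100% of cases. With merged exon lengths the share was 18.7% to 19.9%. The levels are therefore per base of genomic span, and whole reads could be recovered from them. Ptgs1, Hpgds, Hpgd, Alox5, Alox5ap and Lta4h have spans above 20000 bases and were not among the genes tested. Their reads were recovered with the same constants. The gene reads summed to 10213773 to 13868671 in S. epi + anti-CTLA-4 libraries and to 10914657 to 13774478 in S. epi libraries. The ribosomal RNA entries Rn45s and Mir6236 held 30.6% to 40.2% of the listed TPM with the antibody and 32.4% to 37.7% without it. Keratinocyte markers (Krt5, Krt14, Krt1, Krt10 and 3 others), none of them at 0, summed to 19060 to 22371 TPM with the antibody and 20997 to 26668 TPM without it. Of these 7 markers Krt1 was called higher and Dsc3 lower. An unadjusted limma p under 0.05 was found for 4 of the 7, against 4145 of all 15704 genes tested. The sums are mostly Krt10, at 11167 to 13583 TPM with the antibody and 14682 to 18869 TPM without it, which was not called. Krt5 and Krt14 overlapped between the groups.

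In skin given anti-CTLA-4, Ptgs2 and Alox5ap rose, with mean TPM 2.49 and 2.13 times that of S. epi skin, Ptgs1 fell to 0.746 times, and the other 7 genes were not called. All 10 passed the expression filter of 1 TPM in at least 4 libraries. With limma on log2(TPM + 1) and Benjamini-Hochberg adjustment, 2 of 10 were called higher and 1 lower at an adjusted p under 0.05. Over all 15704 genes tested, 7.16% were called higher and 4.48% lower, 11.6% together. Of those calls 61.5% were higher, against 47.9% with quantile normalization, 49.8% with a common median and 48.0% with the 50 most abundant genes left out of the total, and the 3 calls described here held under each. The median log2 fold change was 0.144 for the 10 genes and -0.014 for all genes tested. With so few genes, the 3 calls and the background share are given side by side and nothing is read from the difference. In RNA of whole tissue, a change in the number of cells of a type and a change in RNA per cell cannot be told apart.

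**Figure D1:**
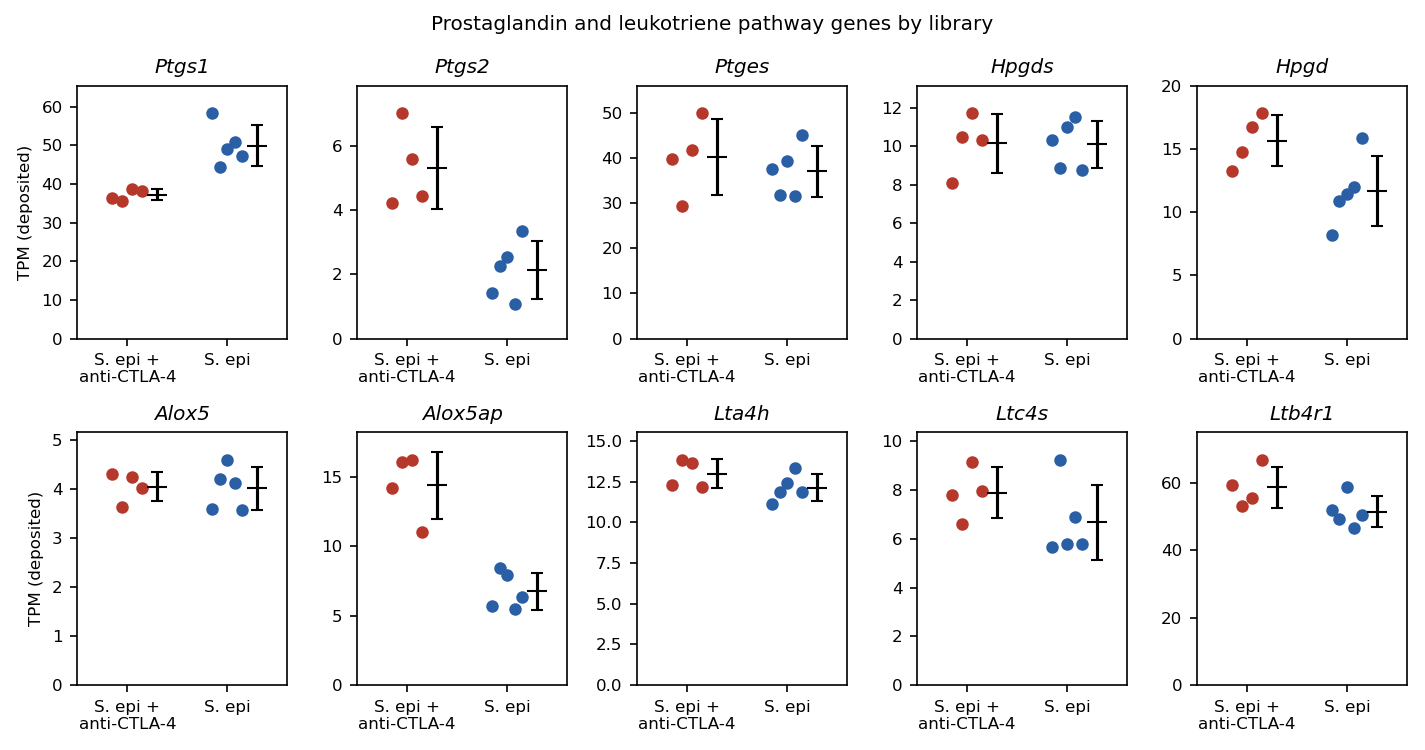
Deposited TPM (y axis, from 0) of the 10 genes in each library, with 4 S. epi + anti-CTLA-4 libraries in red and 5 S. epi libraries in blue. Black marks give the group mean and SD. The groups are apart for Ptgs1, Ptgs2 and Alox5ap and overlap for the other 7 genes.

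Ptgs2, the inducible cyclooxygenase (mm10 chromosome 1, 150100031 to 150108234, plus strand), was the lowest of the 10 genes per exon length. It had 4.21, 7.01, 5.57 and 4.43 TPM in the S. epi + anti-CTLA-4 libraries, against 1.43, 2.27, 2.53, 1.08 and 3.35 TPM in the S. epi libraries. Every library with the antibody lay above every library without it, and the highest S. epi library was replicate 5. It averaged 5.31 ± 1.28 TPM with the antibody and 2.13 ± 0.906 TPM without it (SD, n = 4 and n = 5). On the log2(TPM + 1) scale, which understates the change of genes with low TPM, Ptgs2 rose by 1.04 ± 0.22 (SE; limma adjusted p = 0.0177). These levels rest on 47 to 84 reads per library with the antibody and 13 to 39 without it. With limma-voom on the recovered reads the rise was 1.40 (adjusted p = 0.00483).

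Ptgs1, the constitutive cyclooxygenase (mm10 chromosome 2, 36230426 to 36252271, plus strand), moved the other way. It had 36.4, 35.7, 38.7 and 38.3 TPM in the S. epi + anti-CTLA-4 libraries, against 58.4, 44.4, 49.0, 50.8 and 47.2 TPM in the S. epi libraries. The antibody libraries were close together and all lay below the lowest S. epi library. Mean levels were 37.3 ± 1.45 TPM with the antibody and 49.9 ± 5.27 TPM without it (SD, n = 4 and n = 5), and Ptgs1 fell by 0.41 ± 0.08 on the log2 scale (SE; limma adjusted p = 0.0116). At 1081 to 1518 and 1461 to 1956 reads per library, it was the most deeply sampled of the 10 genes.

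Within a library, Ptgs2 held 4.35, 7.37, 5.41 and 4.35 reads per 100 reads of Ptgs1 with the antibody, against 0.920, 1.92, 1.94, 0.796 and 2.67 without it. Per kilobase of merged exon, Ptgs2 was at 3.69% to 6.25% of Ptgs1 in the S. epi + anti-CTLA-4 libraries and at 0.675% to 2.26% in the S. epi libraries. The groups did not overlap in this ratio, and Ptgs1 stayed the more abundant cyclooxygenase transcript in all 9 libraries. This ratio does not depend on how libraries are scaled. No test was run on it.

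**Figure D2:**
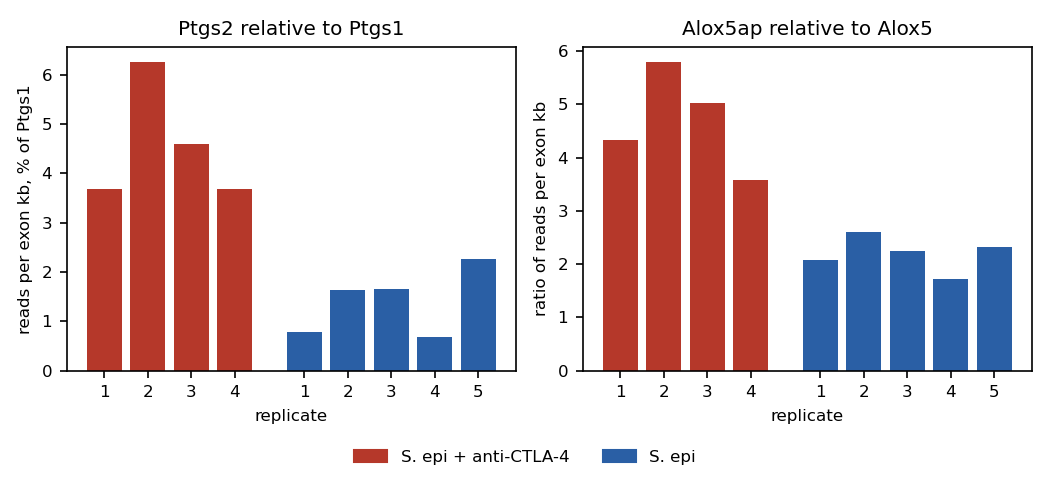
Left, Ptgs2 in percent of Ptgs1, and right, the ratio of Alox5ap to Alox5, both in reads per kilobase of merged exon (y axes, from 0), one bar per library, S. epi + anti-CTLA-4 in red and S. epi in blue. Every red bar is above every blue bar, from 3.69% against up to 2.26% on the left and from 3.59 against up to 2.61 on the right.

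None of the 3 prostaglandin genes that act after the cyclooxygenases passed the test. Ptges, the inducible synthase of prostaglandin E2 (mm10 chromosome 2, 30889471 to 30903297, minus strand), had 39.7, 29.5, 41.7 and 50.0 TPM with the antibody, against 37.6, 31.9, 39.4, 31.6 and 45.2 TPM without it. The antibody libraries held both the lowest and the highest value, and the log2 fold change was 0.10 with a 95% confidence interval of -0.25 to 0.45 (limma adjusted p = 0.731). Hpgds, the hematopoietic synthase of prostaglandin D2 found in mast cells (mm10 chromosome 6, 65117293 to 65144730, minus strand), had 8.06, 10.5, 11.7 and 10.3 TPM with the antibody and 10.3, 8.89, 11.0, 11.5 and 8.77 TPM without it. Its group means of 10.1 ± 1.52 and 10.1 ± 1.23 TPM (SD, n = 4 and n = 5) left a log2 fold change of 0.00 with an interval of -0.25 to 0.26 (limma adjusted p = 0.990).

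Hpgd encodes 15-hydroxyprostaglandin dehydrogenase, which inactivates prostaglandins (mm10 chromosome 8, 56294552 to 56321046, plus strand). It had 13.3, 14.8, 16.8 and 17.9 TPM with the antibody, against 8.24, 10.9, 11.4, 12.0 and 15.8 TPM without it. All S. epi libraries but replicate 5 lay below the lowest antibody library. The log2 fold change was 0.41, with an interval of 0.06 to 0.77 and a limma adjusted p of 0.127, so Hpgd was not called. Without S. epi replicate 5 it was called higher (limma adjusted p = 0.0369), and likewise when reads were scaled to the library total (RPM) in place of TPM (adjusted p = 0.0444) and with limma-voom on the reads (adjusted p = 0.0333). A fit with the replicate number as a block called it too (limma adjusted p = 0.0205). No antibody library is numbered 5, so S. epi replicate 5 adds nothing to the group difference in that fit, as when it is left out. In the other 25 of 29 alternative fits Hpgd was not called. Among those were quantile normalization (limma adjusted p = 0.102) and a common median (limma adjusted p = 0.104). With the mean of skeletal muscle markers as a covariate its log2 fold change was 0.19 (limma adjusted p = 0.785). Its call thus changed with that library and with the fit.

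In the leukotriene branch 1 of 5 genes was called. Alox5ap, the 5-lipoxygenase activating protein that presents arachidonic acid to the enzyme (mm10 chromosome 5, 149265004 to 149288153, plus strand), had 14.2, 16.1, 16.3 and 11.0 TPM in the S. epi + anti-CTLA-4 libraries. In the S. epi libraries it had 5.69, 8.40, 7.91, 5.46 and 6.34 TPM. The groups did not overlap, and replicate 4 was the lowest with the antibody. It averaged 14.4 ± 2.41 TPM with the antibody and 6.76 ± 1.33 TPM without it (SD, n = 4 and n = 5), and Alox5ap rose by 0.99 ± 0.15 on the log2 scale (SE; limma adjusted p = 0.00439). It was read 448 to 634 times per library with the antibody and 186 to 335 times without it.

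Alox5, the 5-lipoxygenase itself (mm10 chromosome 6, 116410071 to 116461178, minus strand), had nearly the same level in both groups. It had 4.30, 3.63, 4.24 and 4.03 TPM with the antibody and 3.60, 4.21, 4.60, 4.12 and 3.56 TPM without it, from at least 258 reads per library. Its log2 fold change was 0.01 (limma adjusted p = 0.949), and the interval of -0.17 to 0.20 lay wholly below that of Alox5ap, 0.66 to 1.32. Per kilobase of merged exon, the ratio of Alox5ap to Alox5 was 3.59 to 5.79 with the antibody and 1.73 to 2.61 without it.

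Of the enzymes after 5-lipoxygenase, Lta4h, the hydrolase that makes leukotriene B4 (mm10 chromosome 10, 93453396 to 93484896, plus strand), had 12.3, 13.9, 13.6 and 12.2 TPM with the antibody and 11.2, 11.9, 12.4, 13.3 and 11.9 TPM without it. Its log2 fold change was 0.09 with an interval of -0.06 to 0.24 (limma adjusted p = 0.440). Ltc4s, the leukotriene C4 synthase (mm10 chromosome 11, 50236461 to 50238532, minus strand), had 7.81, 6.61, 9.17 and 7.98 TPM in the S. epi + anti-CTLA-4 libraries, against 5.67, 9.25, 5.77, 6.88 and 5.79 TPM in the S. epi libraries. S. epi replicate 2 was the highest of all 9, and 17 to 33 reads stood behind each value. Its log2 fold change of 0.23 had an interval of -0.09 to 0.54 (limma adjusted p = 0.345), and without S. epi replicate 2 it was 0.34 (limma adjusted p = 0.0865).

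Ltb4r1 encodes BLT1, the high-affinity leukotriene B4 receptor of neutrophils and activated T cells (mm10 chromosome 14, 55765962 to 55768492, plus strand). It had 59.3, 53.0, 55.4 and 66.9 TPM with the antibody, against 52.0, 49.1, 58.7, 46.4 and 50.5 TPM without it. S. epi replicate 3 lay among the antibody libraries, and the log2 fold change of 0.19 (interval -0.01 to 0.38) was not called (limma adjusted p = 0.205).

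**Figure D3:**
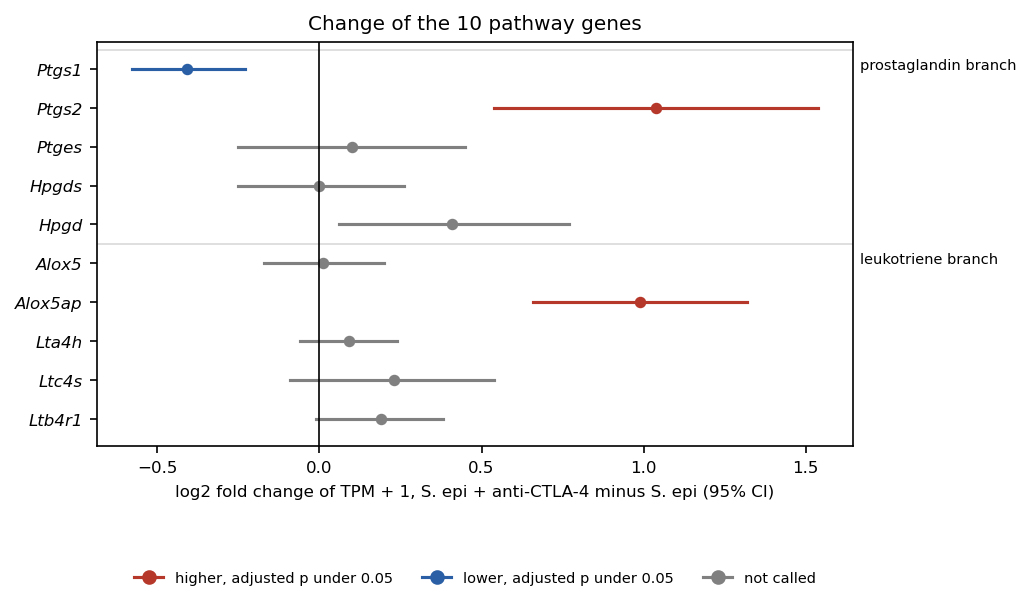
Log2 fold change of TPM + 1 (x axis), S. epi + anti-CTLA-4 minus S. epi, with 95% confidence intervals, for the 10 genes. Ptgs2 at 1.04 and Alox5ap at 0.99 are to the right, Ptgs1 at -0.41 is to the left, and all other points lie between 0.00 and 0.41.

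In an exact permutation test of mean log2(TPM + 1), two-sided, Ptgs1, Ptgs2 and Alox5ap each had p = 0.0159, the smallest that groups of 4 and 5 allow. Hpgd had an exact permutation p of 0.0476, and the other 6 genes had values of 0.0794 (Ltb4r1) to 0.968 (Hpgds). The groups did not overlap for 3 of the 10 genes, against 14.4% of all genes tested. Leaving out any 1 library ended none of the 3 limma calls (highest adjusted p of 0.0483 for Ptgs2, 0.0350 for Ptgs1 and 0.0170 for Alox5ap). With the mean of the skeletal muscle markers as a covariate none of the 3 was called (limma adjusted p = 0.358 for Ptgs2, 0.167 for Ptgs1 and 0.112 for Alox5ap), and the log2 fold change was then 0.61 for Ptgs2, against 1.04 without the covariate, while Ptgs1 at -0.40 and Alox5ap at 0.94 were nearly as far from 0 as without it. That covariate left 0 genes called higher and 1 lower among all 15704, with 2295 at an unadjusted p under 0.05, 2 of them among the 10 genes. With the mean of the hair follicle markers as a covariate, 338 genes were called higher and 33 lower among all 15704. Ptgs2 and Ptgs1 were then not called (limma adjusted p = 0.0707 and 0.0817) and Alox5ap was (0.0301). Their log2 fold changes were no smaller with this covariate, at 1.24 for Ptgs2, -0.44 for Ptgs1 and 1.13 for Alox5ap.

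Between genes, the order of levels depended on the length. By deposited TPM, Ltb4r1, Ptgs1 and Ptges were the highest, with 51.4 ± 4.59, 49.9 ± 5.27 and 37.1 ± 5.67 TPM in S. epi libraries (SD, n = 5). The span of Ltb4r1 is 1.81 times its merged exons, while that of Alox5ap is 16.3 times, that of Hpgd 15.7 times and that of Alox5 12.4 times, and genes with long introns stand lower on the span scale. In RPM per kilobase of merged exon (GENCODE M21), Ptgs1 led with 35.4 ± 3.96 in S. epi libraries, followed by Hpgd (23.2 ± 5.75), Ptges (16.5 ± 2.99), Alox5ap (13.9 ± 2.87) and Ltb4r1 (11.8 ± 1.34). Each of these overlapped its neighbour in range. Lta4h (7.88), Alox5 (6.30) and Hpgds (5.42) came next and overlapped in turn, without overlap with Ltb4r1 above them. Ltc4s (1.71) and Ptgs2 (0.485) were lower than all others without overlap. With the antibody, Hpgd stood at 31.8 ± 3.81, Alox5ap at 30.3 ± 4.64 and Ptgs1 at 27.1 ± 0.884 (SD, n = 4). Their ranges overlapped one another. No source used here says whether reads in introns were counted, and if they were, the exon scale overstates genes with long introns.

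**Figure D4:**
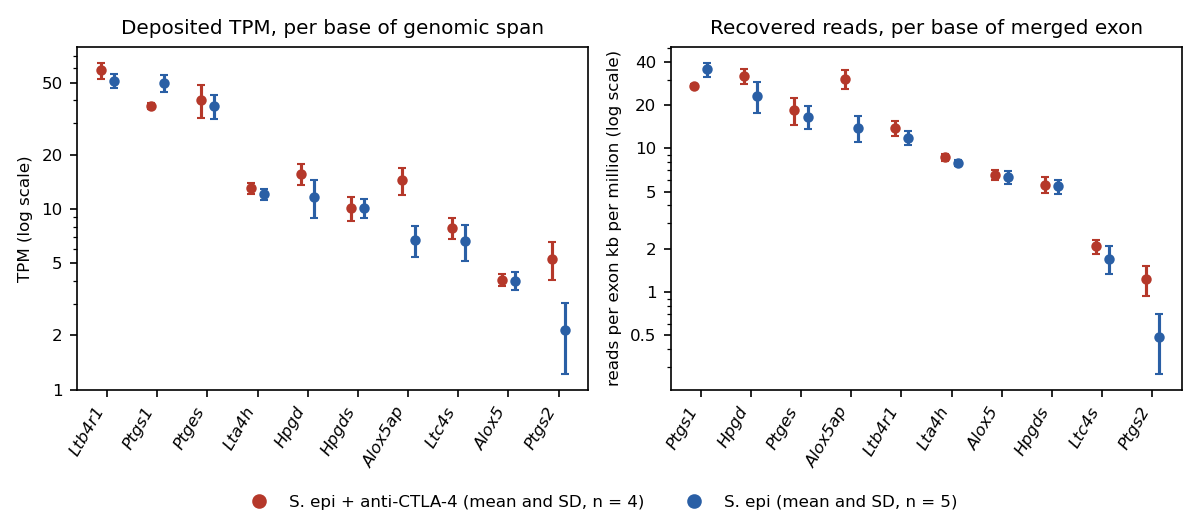
Mean and SD of each gene by group on a log axis, genes in falling order of the S. epi mean. The left panel gives deposited TPM, per base of genomic span, and the right panel recovered reads as RPM per kilobase of merged exon. Alox5ap moves from the seventh place on the left to the fourth on the right, and Ptgs2 is last in both.

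Other genes of the pathway were taken from lists of 48, of which 42 passed the filter. Of these, 7 were called higher (16.7% against 7.16% of all genes tested) and 5 lower (11.9% against 4.48%), with a median log2 fold change of 0.053. Among 12 tested phospholipases A2, 2 fell and 10 were not called. Pla2g2f, a secreted phospholipase of the upper epidermis, had 93.2, 117, 105 and 89.3 TPM with the antibody, against 197, 146, 137, 152 and 122 TPM without it, and fell by 0.56 on the log2 scale (limma adjusted p = 0.0290). Leaving out 1 library ended this call in 5 of 9 cases (adjusted p of up to 0.0784). Pla2g2d, a secreted phospholipase of dendritic cells and macrophages in mouse lymphoid tissue, had 0.681 ± 0.254 and 1.57 ± 0.474 TPM with and without the antibody (SD, n = 4 and n = 5), from 3 to 19 reads per library. It passed the filter only through the S. epi libraries, and its call (adjusted p = 0.0493) was lost in 4 of the 5 cases in which it was still tested. Pla2g4a, the cytosolic phospholipase A2 that serves eicosanoid synthesis in many cells, had 4.70 ± 0.288 TPM with the antibody and 5.71 ± 0.456 TPM without it, in groups that did not overlap. It was not called on TPM (limma adjusted p = 0.0601) but was lower in RPM (adjusted p = 0.0163).

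Of 7 other prostanoid synthase genes, 1 rose and 1 fell. Tbxas1, the thromboxane A synthase of platelets and macrophages, rose by 0.52 on the log2 scale, with 2.64, 2.20, 2.60 and 1.89 TPM with the antibody, against 1.24, 1.30, 1.43, 1.22 and 1.35 TPM without it (limma adjusted p = 0.00678). The groups did not overlap, and at least 298 reads stood behind each value. It shares 3708 bases with 1700025N23Rik on the other strand, itself called higher (limma adjusted p = 0.0455), and reads of the pair cannot be told apart unless strand was used in counting. Ptgis, the prostacyclin synthase of vessel walls and fibroblasts, fell by 0.39, to 4.34 ± 0.212 TPM with the antibody, against 6.04 ± 1.01 TPM without it (limma adjusted p = 0.0357). Its call was lost in 6 of 9 cases when 1 library was left out (adjusted p of up to 0.0859). The remaining 5 synthase genes, among them the other prostaglandin E synthases Ptges2 and Ptges3, were not called.

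Of 8 tested prostanoid receptors, 3 were called higher, all of them receptors of prostaglandin E2. Ptger4, the EP4 receptor, had 10.3, 9.96, 10.7 and 11.3 TPM with the antibody and 8.10, 7.64, 8.11, 9.31 and 8.70 TPM without it, without overlap (log2 fold change 0.30, limma adjusted p = 0.0199). Its call ended without S. epi + anti-CTLA-4 replicate 4 or S. epi replicate 2 (adjusted p of up to 0.0571). Ptger1, the EP1 receptor, had 59.5 ± 10.2 TPM with the antibody and 41.5 ± 6.32 TPM without it (limma adjusted p = 0.0465). Its merged exons in GENCODE M21 cover 5459 bases, more than its listed span of 3461 bases, so the gene models differ and the level of Ptger1 is uncertain. Ptger2, the EP2 receptor, had 1.93 ± 0.431 TPM with the antibody and 1.09 ± 0.303 TPM without it (limma adjusted p = 0.0481). Both overlapped between the groups, and both lost their call in 7 of 9 cases when 1 library was left out (adjusted p of up to 0.109 for Ptger1 and 0.113 for Ptger2). Ptger3, the EP3 receptor, had 1.70 ± 0.218 TPM with the antibody and 1.54 ± 0.257 TPM without it and was not called. Ptgdr, a prostaglandin D2 receptor, was below the filter with 1.24 ± 0.420 TPM with the antibody and 0.561 ± 0.161 TPM without it (10 to 25 and 5 to 9 reads), and had an exact permutation p of 0.0317. In the list of transport and reduction, Abcc1, an exporter of leukotriene C4 and other conjugates, had 17.6 ± 1.66 TPM with the antibody and 21.3 ± 1.24 TPM without it and fell by 0.26 on the log2 scale (limma adjusted p = 0.0449). All but 1 of the 9 fits without a library lost that call (adjusted p of up to 0.114).

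Among leukotriene receptors and converting enzymes, 3 of 6 tested genes rose and 3 were not called. Cyp4f18, a cytochrome P450 of mouse neutrophils that hydroxylates leukotriene B4, had 4.73, 5.79, 4.49 and 2.79 TPM with the antibody, against 1.97, 2.25, 2.35, 1.83 and 2.27 TPM without it, and rose by 0.77 (limma adjusted p = 0.0128). Ggt5 and Dpep2, which encode enzymes that trim leukotriene C4 to D4 and D4 to E4, rose by 0.50 and 0.65 (adjusted p = 0.0116 and 0.0190). The groups did not overlap for any of these. The call of Dpep2 ended without S. epi + anti-CTLA-4 replicate 2 (adjusted p = 0.0528). Dpep1, another dipeptidase, had 10.7 ± 1.88 TPM with the antibody and 14.8 ± 2.74 TPM without it and was not called (adjusted p = 0.105). The cysteinyl leukotriene receptor gene Cysltr1 had 6.76 ± 0.844 TPM with the antibody and 5.37 ± 0.494 TPM without it, in groups without overlap, and was not called (adjusted p = 0.0736), although it was in RPM (adjusted p = 0.0223). Cysltr2, below the filter, had 0.970 ± 0.0680 TPM with the antibody and 0.545 ± 0.206 TPM without it (SD, n = 4 and n = 5; exact permutation p = 0.0159). Pla2g10, a phospholipase A2 also below the filter, was lower, at 0.143 ± 0.0488 TPM with the antibody and 0.296 ± 0.123 TPM without it (exact permutation p = 0.0476). It had 2 to 5 and 4 to 11 reads per library. Pla2g4c, Ggt1 and Oxgr1, below the filter as well, had exact permutation p-values of 0.556 to 0.952. These p-values and that of Ptgdr are not adjusted.

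**Figure D5:**
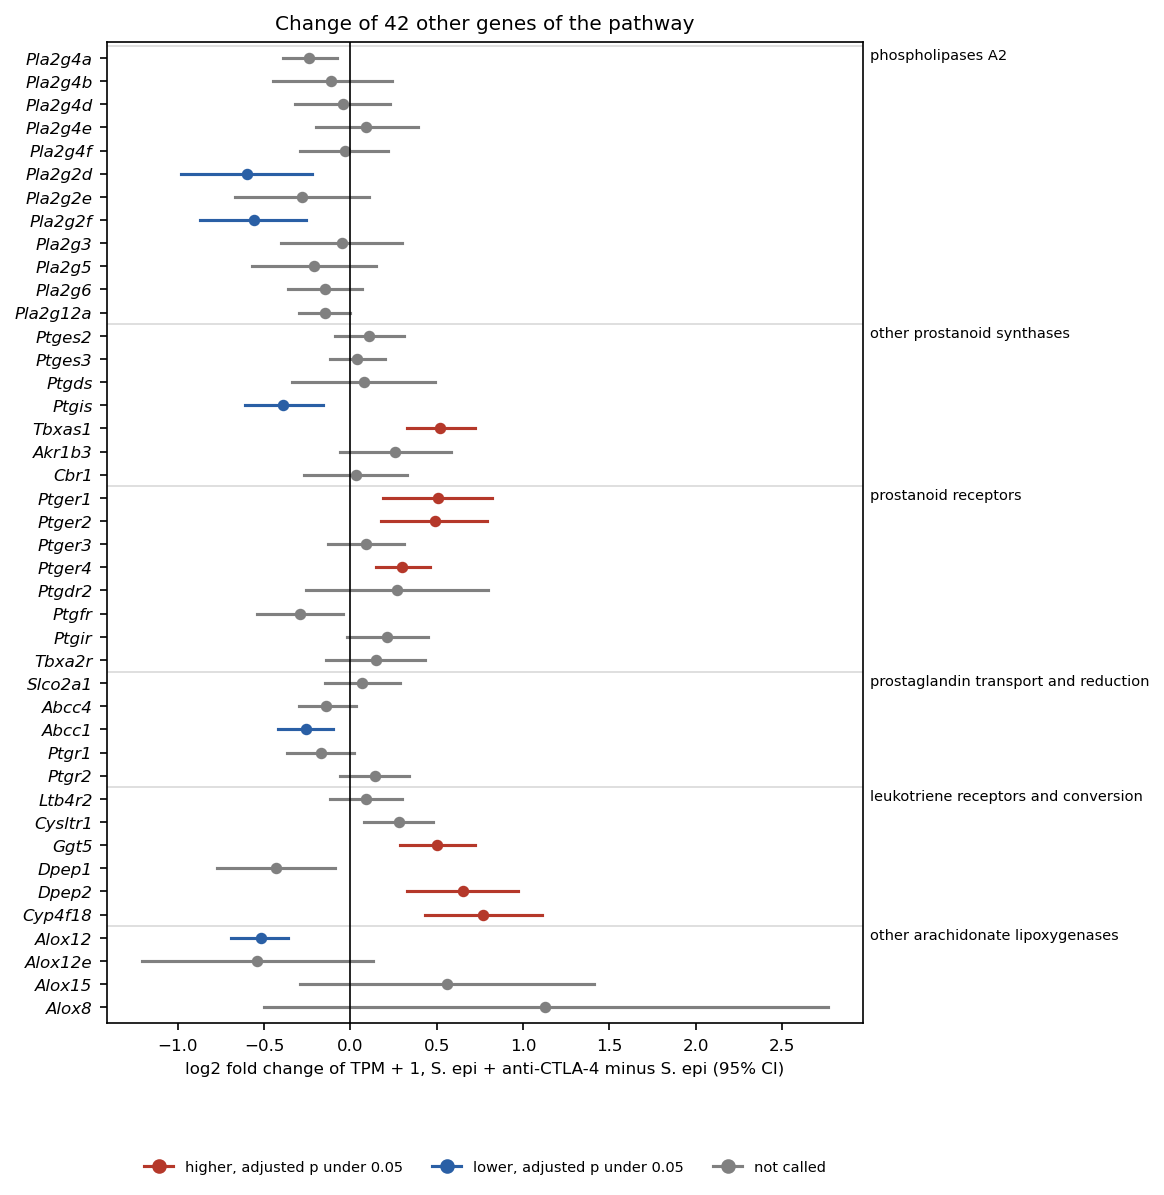
Log2 fold change of TPM + 1 (x axis), S. epi + anti-CTLA-4 minus S. epi, with 95% confidence intervals, for 42 other genes of the pathway grouped by role. Red points are the 7 genes called higher, from Ptger4 at 0.30 to Cyp4f18 at 0.77, and blue points the 5 called lower, from Pla2g2d at -0.60 to Abcc1 at -0.26.

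Of the other arachidonate lipoxygenases, Alox12, the platelet-type enzyme that mouse epidermis also expresses, had 11.3, 11.1, 12.7 and 11.1 TPM with the antibody, against 18.7, 18.5, 16.0, 15.7 and 16.3 TPM without it. It fell by 0.52 on the log2 scale (limma adjusted p = 0.00372), the smallest p among the 52 pathway genes tested. Alox8 ranged between 31.2 and 152 TPM with the antibody and between 7.20 and 88.2 TPM without it, and its log2 fold change of 1.13 had an interval of -0.50 to 2.77. Alox12e and Alox15 were not called either (adjusted p = 0.287 and 0.394).

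Marker genes of several cell types moved with these results. Of 12 macrophage and monocyte markers, 8 rose, with summed levels of 1180 to 1551 TPM with the antibody and 838 to 1034 TPM without it, and none was at 0 in any library. For T cells 7 of 8 rose (sums of 50.3 to 66.0 and 25.5 to 30.0 TPM in the same order, none at 0), among them Cd6, which passed the filter only through the antibody libraries. Of 10 neutrophil markers 7 were tested and 4 rose, with sums of 1523 to 4469 TPM with the antibody and 113 to 1484 TPM without it, and Ly6g, Retnlg and Camp were at 0 in at least 1 library. Those sums are mostly S100a8 and S100a9, which were not called, and the 4 that rose (Csf3r, Cxcr2, Retnlg and Mmp9) were at 2.04 to 28.0 TPM with the antibody and 0 to 17.3 TPM without it. Retnlg reached 1 TPM in only 1 S. epi library, and Camp, below the filter, had 0 to 1.33 TPM with the antibody and 0.679 to 1.88 TPM without it. Their part in the rise of Ptgs2, Alox5ap, Tbxas1 and Cyp4f18 was not tested. Of 9 mast cell markers 4 rose (Cpa3, Cma1, Mcpt4 and Hdc), with sums of 280 to 290 TPM with and 166 to 236 TPM without the antibody, none at 0. Those sums are mostly Mcpt4, Cma1 and Tpsb2, of which Tpsb2 was not called. Mrgprb2 went the other way without a call, at 0.851 to 1.342 TPM with the antibody and 1.465 to 2.289 TPM without it. Kit, also not called, had 2.722 to 3.31 TPM with the antibody and 3.212 to 4.212 TPM without it. Hpgds and Ltc4s were not called. The skeletal muscle markers, of which 1 of 10 fell, summed to 1160 to 1646 TPM with the antibody and 1343 to 2105 TPM without it. Of the 10, 5 had an unadjusted limma p under 0.05, against 4145 of all 15704 genes tested. The median log2 fold change of the 10 muscle markers was -0.424. Their mean log2(TPM + 1), used as the covariate, was 6.35 ± 0.22 with the antibody and 6.76 ± 0.21 without it (SD, n = 4 and n = 5). That covariate thus differed between the groups. The hair follicle markers, of which 1 of 4 tested fell, summed to 12.2 to 17.9 TPM with the antibody and 18.0 to 38.1 TPM without it, and Krt35 was at 0 in at least 1 library. The covariate fits above bear on these, and the part of the keratinocytes in the fall of Ptgs1, Pla2g2f and Alox12 was not tested. None of the markers of dendritic and Langerhans cells (8 tested), sebaceous gland (7), fibroblasts (7), endothelium (6) or adipocytes (6) was called. At an unadjusted limma p under 0.05 were 4, 2, 1, 2 and 0 of them, in that order. The groups did not overlap for 1 dendritic and Langerhans marker and 1 sebaceous marker, both lower with the antibody, and for 2 endothelial markers, both higher. Among all genes tested, 14.4% did not overlap. The 6 eosinophil and basophil markers were all below the filter, with sums of 1.83 to 3.01 and 0.502 to 1.51 TPM, and 5 of them were at 0 in at least 1 library.

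The genes closest in profile were taken from 13675 other named protein-coding genes by the root mean square distance between profiles scaled to mean 0 and SD 1 over the 9 libraries. For Alox5ap they were Zyx (0.11), Selplg (0.13) and Ucp2 (0.13). For Ptgs2 they were Sp110 (0.19), Cd180 (0.19) and Ccl3 (0.21), and for Ptgs1 Susd2 (0.18), Nectin4 (0.22) and Dsp (0.23). The distances take in the difference between the groups as well as the spread within them.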

How the data were processed

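Total RNA (500 ng per library) of whole ear skin was sequenced with 75 cycles, per the labels' protocols. STAR, HOMER and DESeq2 and the build mm10 are named in the submitters' processing notes without roles or versions. The authors deposited TPM per gene and library, and no source used here gives the annotation or how intronic, shared or antisense reads were counted. Library groups and numbers come from the sample titles.

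Reads were recovered as TPM times listed length, divided by a constant found per library. The 15704 genes that reached 1 TPM in 4 or more libraries entered limma 3.58.1 (R 4.3.3) as log2(TPM + 1), with variances that follow the mean, no covariate, and Benjamini-Hochberg adjustment across all of them, and were called at an adjusted p under 0.05 (two-sided). Single genes were also compared by an exact permutation test in scipy 1.17.1. The fit was tested on simulated data. Named genes are the 10 members, each called gene of the 6 other pathway lists, and the 3 nearest profiles per called member. Any other gene was named after its values were seen. The members and lists were chosen with earlier results of these data known. Fits on recovered reads, on exon lengths and on protein-coding genes were added after the data were seen. No libraries of a group agreed within counting noise, so none was treated as a duplicate deposit, which does not show that they are separate animals. Alternatives covered the pseudocount, filter, scaling, variance model, replicate block, marker covariates and leaving out each library. Some results are not reported here.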

Additional observations from a re-analysis of the deposited data

Results flagged for a closer look

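Within a group, 3 of the 44 gene and group pairs checked (the 10 members and the 12 called pathway genes, each in both groups) had a library far from the others, where chance gives about 1 in 20. S. epi + anti-CTLA-4 replicate 2 had 4.03 TPM of Ptgis, against 4.43 to 4.48 TPM in the other 3 libraries of that group. In S. epi + anti-CTLA-4 replicate 3, Abcc1 was at 20.1 TPM, against 16.5 to 17.1 TPM in the other 3. The same library had 12.7 TPM of Alox12, against 11.1 to 11.3 TPM in the others.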

How the results depend on the processing

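The calls of Ptgs2, Alox5ap and Ptgs1 held under every other pseudocount, scaling and variance setting tried and in all 9 fits that left out 1 library, which called 2 to 3 of the 10 genes higher and 1 lower, 4 to 6 other pathway genes higher and 1 to 5 lower. At a minimum of 5 TPM, 1 of the 10 genes was called higher, since Ptgs2 was no longer tested, with 3 and 3 other pathway genes higher and lower. Without a filter 2 other pathway genes were called lower, with quantile normalization 9 and with limma-voom on the reads 8, against 5. The skeletal muscle covariate left 0 calls among the 10 members and the 42 other pathway genes with limma. At an unadjusted p under 0.05 were 2 and 12 of them, against 4 and 16 without it. Over all 15704 genes tested, 2295 were under 0.05 with it and 4145 without it. Fold changes were smaller for Ptgs2 (0.61) and Ptgis (-0.23), but not for Tbxas1 (0.57), Cyp4f18 (0.82) or Alox12 (-0.60). The hair follicle covariate left 1 member higher and 0 lower, and 0 and 1 other pathway genes (4 and 13 at an unadjusted p under 0.05). Over all genes tested it left 338 called higher and 33 lower, against 1124 and 704 in the main fit, and 2564 at an unadjusted p under 0.05. The cause of these losses was not tested. The replicate block called 3 members higher and 0 lower (Ptgs1 at a limma adjusted p of 0.0585), and 1 other pathway gene each way, with 4 members and 15 others at an unadjusted p under 0.05. Over all genes tested the block fit called 593 higher and 88 lower, with 3612 at an unadjusted p under 0.05. S. epi replicate 5, the only library of its number, adds nothing to the group difference in that fit. Libraries with the same number did not deviate together (correlations of -0.0933 to 0.018), so the numbers were not taken as pairs. Fold changes near 0 changed sign. That of Hpgds was below 0 in 11 fits (-0.01, -0.01 and -0.02 with the scalings, -0.04 with the block, -0.001 and -0.11 with the muscle and hair covariates) and ran over -0.06 to 0.10 without 1 library. That of Alox5 was below 0 in 9 (-0.01 to -0.03, and -0.02 to 0.05 without 1 library), and that of Ptges was -0.12 with the muscle covariate and ran over -0.01 to 0.24 without 1 library. Pla2g2d rests on 3 to 19 reads per library, Ltc4s on 17 to 33 and Ptgs2 on 13 to 84, which limits their precision.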
